A study of Mus musculus with 27 samples.

Results

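CD8+ T cells that carried KLRG1 but not PD-1 were compared between MC38 tumours of mice given the combination immunotherapy named Tri and MC38 tumours of mice given the isotype control named Iso. The comparison uses 8 of the 27 libraries of the series, chosen by the treatment and the sort gate in their titles: 4 Tri PD1-KLRG1+ libraries and 4 Iso PD1-KLRG1+ libraries. MC38 is a mouse colon adenocarcinoma line. Tumours were digested with enzymes, and live CD45+ CD3+ CD8+ cells were sorted on a flow cytometer by their PD-1 and KLRG1 staining before RNA sequencing. All groups share this tumour, this digestion and this staining. The series text describes the Tri treatment only by the abbreviation TCT, and the labels do not state its agents, doses or timing, the strain, age or sex of the mice, or how many cells were sorted. A further 9 libraries of the PD1-KLRG1- gate, 5 Tri and 4 Iso, serve below to ask whether a treatment difference was larger in one gate than in the other. Whether each library came from its own mouse is not stated in the labels, so p-values measure a spread between libraries. In the main test by gene (edgeR) that spread comes from all 27 libraries, not only from the 8 compared.

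KLRG1 is a lectin-like inhibitory receptor that appears on late effector CD8+ T cells, and PD-1 is an inhibitory receptor of cells under continued antigen stimulation. Effector cells kill through perforin and granzymes and depend on factors such as T-bet, ZEB2 and ID2, whereas cells with memory potential keep the IL-7 receptor, BCL2 and the factors TCF1 and ID3. T cells that stay in tissue carry CD69, which opposes the exit receptor S1PR1, and often CXCR6, the receptor for the membrane-bound chemokine CXCL16.

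Klrg1 transcripts were far more abundant in the KLRG1+ than in the KLRG1- libraries under both treatments. Klrg1 was at 245 ± 68.3 CPM (a gene's counts scaled to the library's total; mean ± SD, n = 4) under Tri and 212 ± 68.0 under Iso, against 19.2 ± 11.5 and 1.76 ± 2.08 in the KLRG1- gate. Cd8a was at 1168 ± 48.4 and 962 ± 179 CPM, Cd3e at 1049 ± 214 and 1047 ± 302, and Cd4 had no count in any of the 8 libraries. Pdcd1, the PD-1 gene, was at 88.8 ± 52.5 CPM under Tri. Under Iso it was at 204 and 146 CPM in replicates 1 and 2 and at 0 and 0.0502 in replicates 3 and 4. In the KLRG1- gate Klrg1 was higher under Tri (log2 fold change 3.33 ± 0.78, edgeR adjusted p = 0.0359). Within PD1-KLRG1+ cells none of the genes above passed the test between Tri and Iso. In all 4 Iso PD1-KLRG1+ libraries, however, many genes that the other libraries contain had no count. Iso replicate 3 held 93198 counts in all, so that 1 count there is 10.7 CPM, while the other 3 Iso libraries held 6991521 to 19929546 and the Tri libraries 8586184 to 11989076. Of the 4412 tested genes whose mean over the 27 libraries was 50 CPM or more, 3.63%, 3.33%, 16.5% and 7.07% had no count in Iso replicates 1 to 4, against 0.0907% to 0.295% in the Tri libraries. With every library thinned to 93198 counts, 8584 ± 284 genes were detected under Tri and 6510 ± 491 under Iso (2-sided exact permutation p = 0.0286, the smallest that 4 against 4 allow; 0.0714 after Benjamini-Hochberg adjustment over the 10 library measures tested). Correlations of log2 CPM across 4416 genes ran from 0.746 to 0.92 between Tri replicates and from 0.273 to 0.379 between Iso replicates. Iso replicate 4 also held 12580 CPM of myeloid marker transcripts, 3982 CPM of tumour and stroma marker transcripts and 8.52% mitochondrial transcripts. The other 3 Iso libraries held 440 to 1357 CPM, 118 to 655 CPM and 0.353% to 2.15% of these.

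**Figure D1:**
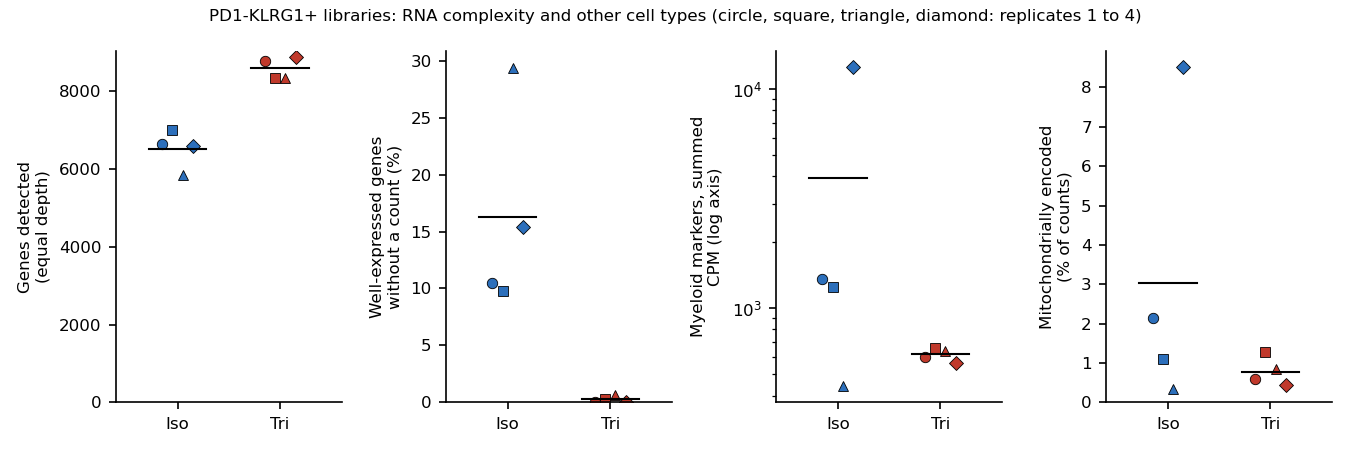
Measures of each of the 8 libraries (circle, square, triangle and diamond are replicates 1 to 4): genes detected at equal depth, percent of well-expressed genes (median of at least 20 CPM) without a count, summed CPM of myeloid markers on a log axis, and percent mitochondrial counts. The Tri libraries lie close together, the Iso libraries detect fewer genes than every Tri library, and Iso replicate 4 is highest in myeloid and mitochondrial transcripts.

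Across the 14059 genes tested, 768 were higher and 87 lower in Tri than in Iso PD1-KLRG1+ cells (5.46% and 0.619%, or 6.08% in either direction; edgeR's quasi-likelihood test, Benjamini-Hochberg adjusted p under 0.05). Of the 768, 391 had no count in any Iso library. Among the 4412 genes at 50 CPM or more, 163 were higher (3.69%) and 51 lower (1.16%), which is 4.85% in either direction, and 128 and 46 of these had counts in every Iso library. Median log2 fold changes were 0.34 over all genes and 0.16 over these 4412. In 108 of the 163 and 27 of the 51 genes the 4 Tri libraries did not overlap the 4 Iso libraries, a pattern that 4.92% and 1.34% of the 4412 genes showed (8.38% and 0.661% of all genes tested). The direction of the calls depended on how libraries were scaled. Median-ratio (RLE) scaling lowered the log2 fold changes by a median of 0.19 over all genes and turned the 163 higher and 51 lower into 77 higher and 96 lower. These p-values borrow a spread per gene from all 27 libraries. In an edgeR fit of the 8 libraries alone, where only the spread of these groups counts, no gene passed (1560 did before adjustment, at 0.05), and DESeq2 on the same 8 libraries called 618 higher and 138 lower. Limma-voom with a weight per library called 0 higher and 5 lower (1381 genes passed 0.05 before adjustment). Without Iso replicates 3 and 4, 286 of the 4412 genes were higher and 117 lower, and 132 of the 214 calls kept their direction and their call. The 61 called genes that the rule for named genes chose all had the same sign in the 8 libraries alone. The same 8 libraries largely set the fold changes of both fits, so this agreement is no support for the calls. Of the 61 genes, 34 were called in each of the 8 leave-one-out fits, which drop 1 library in turn, and without Iso replicates 3 and 4. Adjusting for how many genes each library detected, as a covariate, kept 30 of the 61. The Tri libraries detected 11420 to 13340 genes and the Iso libraries 5832 to 9427. Since these ranges do not overlap, the adjustment cannot separate the loss of genes from treatment.

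**Figure D2:**
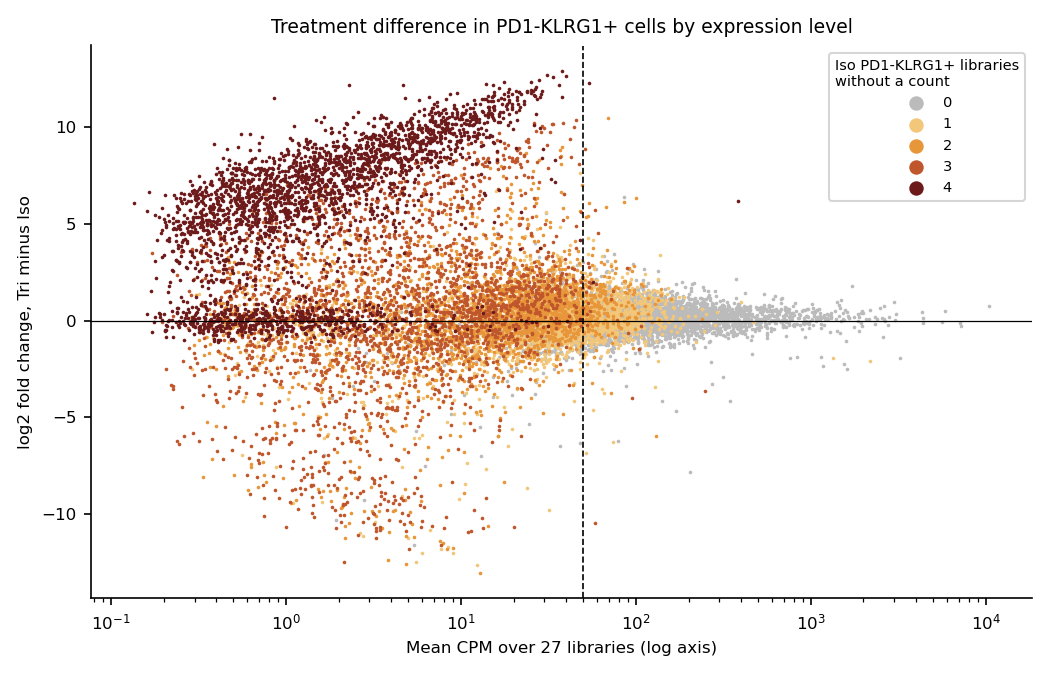
Log2 fold change of Tri over Iso PD1-KLRG1+ cells (vertical) against the mean CPM over 27 libraries (horizontal, log axis) for every gene tested, coloured by how many of the 4 Iso libraries had no count; the dashed line marks 50 CPM. The largest positive fold changes belong to genes without a count in most Iso libraries, and to the right of the line most genes lie near 0.

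Il7r, Cd28 and other genes of memory cells were higher under Tri. Among 18 genes of the stem-like and memory program, 5 were higher and 0 lower, against 5.46% of all genes higher: Il7r, Cd28, Bcl2, Id3 and Bcl6. Their list had a median log2 fold change of 1.02, beside 0.34 over all genes, and its summed level was 2229 to 2799 CPM in the Tri and 813 to 2033 CPM in the Iso libraries. Fewer cells that carry such transcripts and less of the transcript per cell cannot be told apart in bulk RNA. Without Iso replicates 3 and 4, 3 of the 18 were called higher. In 9 of the 18 genes at least 1 Iso library had no count. After adjustment for genes detected, Cd28 (edgeR adjusted p = 0.0028) and Id3 (0.0129) held their call, and Il7r (0.0543), Bcl2 (0.488) and Bcl6 (0.0828) did not.

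Il7r, which encodes the IL-7 receptor alpha chain, lies at chr15:9505788-9530176 in the GENCODE M21 annotation. It was at 80.0, 243, 87.5 and 120 CPM in Tri replicates 1 to 4 and at 23.6, 21.6, 0 and 0.1004 CPM in Iso replicates 1 to 4. The lowest Tri library exceeded the highest Iso library. Iso replicate 4 held almost none, while in Iso replicate 3 the count of 0 allows a level of up to 32.2 CPM. The log2 fold change was 3.38 ± 0.70 (SE; edgeR adjusted p = 0.0039), and 2.55 without Iso replicates 3 and 4 (adjusted p = 7.51e-05). Bcl2, the survival factor that IL-7 signals maintain, was at 436, 431, 434 and 651 CPM under Tri and at 304, 187, 75.1 and 149 CPM under Iso. The 2 groups did not overlap (log2 fold change 1.44 ± 0.38, adjusted p = 0.0224), but the call ended without Iso replicate 3 or Tri replicate 4 (edgeR adjusted p up to 0.0835) and without both Iso replicates 3 and 4 (0.149). Bcl2a1b, which encodes an A1-type relative of BCL2, was the 1 member of the 15 genes of the BCL2 family list that passed. It was at 202, 284, 266 and 151 CPM under Tri and at 134, 100, 118 and 81.6 CPM under Iso. The lowest Tri library lay above the highest Iso library, with a log2 fold change of 1.12 ± 0.21 (edgeR adjusted p = 0.0013). Bcl2a1b has near-identical copies in the mouse genome, so reads could have been shared between them.

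Id3, an inhibitor of E proteins in memory precursors, was at 11.8, 5.04, 11.4 and 7.57 CPM under Tri and had no count under Iso. Against a floor of 3 counts over the 4 Iso libraries that is at least 105-fold higher (edgeR adjusted p = 0.00281). This bound, and the like bounds given below for other genes, cover counting error only and not the loss of whole genes from the Iso libraries. The largest Iso total behind them is that of Iso replicate 4 (19929546 counts). Over the 27 libraries Id3, Btla, Itgb3, Srf and Prr5l have means below 50 CPM (28.4, 15.4, 37.9, 40.0 and 13.9). Bcl6 (7.42) and Itga6 (39.0), given without a bound, also lie below that level. In the KLRG1- gate Id3 was at 131 ± 51.4 CPM under Iso, so the Iso libraries of the 2 gates lay far apart. Bcl6, a repressor in memory and follicular T cells, had 1.51 to 9.14 CPM under Tri and none under Iso (adjusted p = 0.0301, but 0.0799 without Iso replicate 4 and 0.0824 without Iso replicates 3 and 4). Other defining genes of the program did not pass. Tcf7, which encodes TCF1, was at 90.9 to 128 CPM under Tri and at 302, 308, 494 and 0 CPM under Iso, so that 3 Iso libraries lay above all Tri libraries and the fourth held none (log2 fold change -1.13 ± 1.20, adjusted p = 0.666). Slamf6 was at 123 to 157 CPM under Tri and at 87.8, 83.5, 32.2 and 0 CPM under Iso, without overlap but with an edgeR adjusted p of 0.242.

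Cd69 and Cxcr6, genes of tissue residency, rose under Tri. They were the 2 that passed of 14 genes of activation and tissue residency, where 5.46% of all genes were higher. Cd69 (chr6:129267325-129275436) was at 348, 329, 432 and 339 CPM in Tri replicates 1 to 4 and at 74.5, 124, 42.9 and 120 CPM in Iso replicates 1 to 4, the third of these from 4 counts. All Tri libraries lay far above all Iso libraries, with a log2 fold change of 1.94 ± 0.29 (edgeR adjusted p = 0.000141). Without Iso replicates 3 and 4 it was 1.92 (adjusted p = 0.000165). Cxcr6 (chr9:123806475-123811760) was at 1290, 981, 1201 and 1344 CPM under Tri and at 756, 674, 322 and 593 CPM under Iso. The groups did not overlap, and Iso replicate 3 was the lowest library. The log2 fold change of Cxcr6 was 1.06 ± 0.20 (adjusted p = 0.00191) and fell to 0.69 without Iso replicates 3 and 4 (edgeR adjusted p = 0.0221). After adjustment for genes detected the adjusted p of Cxcr6 was 0.323. Itgae, the integrin alpha E gene of epithelial residency, was at 0 to 5.59 CPM under Tri and at 66.9, 0, 10.7 and 0 CPM under Iso (adjusted p = 0.186). The exit genes S1pr1 (log2 fold change -0.24 ± 0.69) and Klf2, its activator (-0.95 ± 0.80), did not pass (edgeR adjusted p = 0.935 and 0.544).

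Of the 20 tested genes of homing and egress, 5 were higher and none was lower, with Itgb3, Gpr183, Itga6 and Itgav among the higher. The list's median log2 fold change was 0.26, below the 0.34 of all genes. Gpr183, which encodes the oxysterol receptor EBI2, was at 269, 169, 271 and 220 CPM under Tri and at 48.8, 59.7, 204 and 55.2 CPM under Iso. Iso replicate 3 lay inside the Tri range, on few counts, and the other 3 Iso libraries lay well below it (log2 fold change 1.66 ± 0.31, edgeR adjusted p = 0.00126). Itgb3, the beta 3 integrin chain, was at 57.8, 61.5, 43.0 and 94.8 CPM under Tri and at 0 in the 4 Iso libraries, a bound of at least 718-fold higher (edgeR adjusted p = 9.73e-05). Its partner Itgav, the alpha V chain, was at 28.6 to 74.4 CPM under Tri and at 0, 0, 53.7 and 0.351 CPM under Iso (log2 fold change 6.13 ± 1.43, adjusted p = 0.00986). Itga6, the alpha 6 chain, was at 35.8 to 60.2 CPM under Tri and at 0.0502 to 10.7 CPM under Iso (adjusted p = 0.00658).

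**Figure D3:**
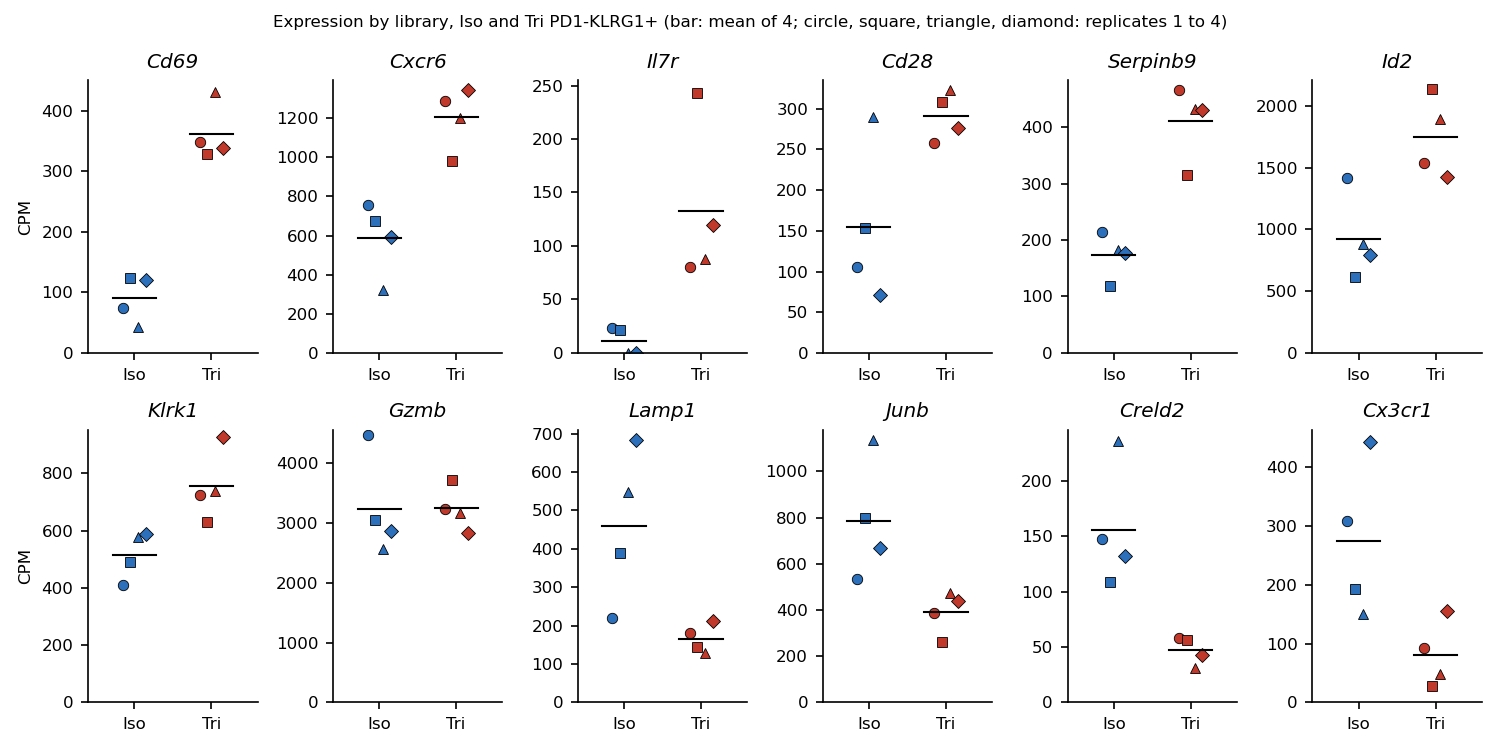
CPM of 12 genes in the 4 Tri and 4 Iso PD1-KLRG1+ libraries (circle, square, triangle and diamond are replicates 1 to 4, the bar is the mean). Cd69, Cxcr6, Il7r, Serpinb9 and Id2 lie higher in every Tri library, Junb and Creld2 lie lower in every Tri library, and Gzmb covers the same range in both groups.

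Serpinb9 and Srgn were higher under Tri, and Gzmb, Prf1 and Ifng did not pass. Of 19 cytotoxic effector molecules, 2 were higher and none was lower, where 5.46% and 0.619% of all genes were. Serpinb9, the inhibitor that shields killer cells from their own granzyme B, was at 466, 315, 433 and 430 CPM under Tri and at 214, 118, 182 and 177 CPM under Iso. Every Tri library exceeded every Iso library (log2 fold change 1.32 ± 0.24, edgeR adjusted p = 0.000957). Srgn, the proteoglycan core of the killing granules, had a log2 fold change of 0.90 ± 0.26 with overlapping libraries (adjusted p = 0.0413), which ended in 6 of 8 leave-one-out fits (up to 0.18, without Iso replicate 1, 2 or 3 or Tri replicate 1, 2 or 3) and under RLE scaling (0.119). Gzmb, granzyme B itself, was at 3237, 3729, 3172 and 2842 CPM under Tri and at 4472, 3054, 2575 and 2874 CPM under Iso. The 2 groups overlapped throughout, and the log2 fold change was 0.06 ± 0.20 (adjusted p = 0.947). Prf1, perforin, was at 148 to 321 CPM under Tri and 221 to 511 CPM under Iso (-0.51 ± 0.29, adjusted p = 0.302), and Ifng, interferon gamma, at 67.8 to 199 and 70.2 to 342 CPM (-0.35 ± 0.44, adjusted p = 0.74).

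Genes of 2 lectin-like receptors on chromosome 6 lay higher under Tri, with calls that single libraries decided. Of 13 NK receptors and adaptors, 2 were higher: Klrk1 (chr6:129610323-129623864), the activating receptor NKG2D, and Klrc1 (chr6:129666015-129678973), the inhibitory receptor NKG2A. Klrk1 was at 726, 629, 737 and 927 CPM under Tri and at 409, 489, 579 and 587 CPM under Iso. The groups did not overlap but lay close (log2 fold change 0.62 ± 0.18, edgeR adjusted p = 0.0379). That call ended in 6 of the 8 leave-one-out fits, every one except those without Iso replicate 2 or 4 (up to 0.0996), without Iso replicates 3 and 4 (0.0566) and under RLE scaling (0.211). Klrc1 was at 664, 689, 762 and 659 CPM under Tri and at 522, 193, 182 and 390 CPM under Iso. The Tri libraries lay close together and above a scattered Iso group (1.12 ± 0.30, adjusted p = 0.0235). Its call ended without Iso replicate 2 or 3 or Tri replicate 1, 2 or 3 (up to 0.0721), without Iso replicates 3 and 4 (0.0995) and under RLE scaling (0.0536), and reads may be shared with its close relatives Klrc2 and Klrc3.

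Neighbouring genes on chromosome 1 for 2 costimulatory receptors and 1 inhibitory receptor were higher. Cd28 (chr1:60716800-60773359), Ctla4 (chr1:60887000-60915832) and Icos (chr1:60977927-61000320) lie in this order in the annotation. Cd28, the main costimulatory receptor of T cells, was at 258, 308, 323 and 277 CPM under Tri and at 105, 153, 290 and 71.2 CPM under Iso. Iso replicate 3 lay among the Tri libraries and the other 3 below them (log2 fold change 1.14 ± 0.26, edgeR adjusted p = 0.00929; 0.057 under RLE scaling). Without Iso replicates 3 and 4 its log2 fold change was 1.17 (adjusted p = 0.00417). Ctla4, the inhibitory receptor that competes with CD28 for its ligands, was at 54.1, 51.9, 44.7 and 44.0 CPM under Tri and had no count in any Iso library. This is at least 559-fold higher against the floor of 3 counts (edgeR adjusted p = 3.18e-07). In Iso replicate 3 the count of 0 allows a level of up to 32.2 CPM, and in the other 3 Iso libraries up to 0.151 to 0.429 CPM. Icos, a costimulator induced by activation, was at 165, 155, 171 and 116 CPM under Tri and at 56.2, 138, 53.7 and 30.6 CPM under Iso. Its groups overlapped by 1 library (1.18 ± 0.32, adjusted p = 0.0276), and the call ended in 6 of the 8 leave-one-out fits (up to 0.0826; it held without Iso replicate 2 or Tri replicate 4), without Iso replicates 3 and 4 (0.199) and under RLE scaling (0.071). Icos was the 1 called member of 12 costimulatory receptors.

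Of 16 inhibitory receptors tested, Ctla4 and Btla were higher and Cd244a was lower. Btla, the receptor for HVEM, was at 11.6, 32.5, 20.3 and 11.3 CPM under Tri and was not counted in any Iso library. It was at least 210-fold higher (edgeR adjusted p = 0.00922), at a mean of 15.4 CPM over the 27 libraries. Cd244a, which encodes the SLAM family receptor 2B4, was at 0.609 to 17.3 CPM under Tri and at 32.5, 31.6, 0 and 182 CPM under Iso. Its log2 fold change of -2.61 ± 0.77 (edgeR adjusted p = 0.0428) rested on 3 Iso libraries, and the call ended without Iso replicate 4 or Tri replicate 2, 3 or 4 (up to 0.131) and without Iso replicates 3 and 4 (0.0636). Tigit, Havcr2 and Lag3 did not pass. Tigit was at 43.6 to 84.6 CPM under Tri and 1.67 to 43.6 CPM under Iso (1.80 ± 0.60, adjusted p = 0.074), Havcr2 (TIM-3) at 71.3 to 152 CPM and at 72.1, 113, 0 and 0 CPM (adjusted p = 0.429), and Lag3 at 4.57 to 15.7 and 0 to 14.6 CPM (adjusted p = 0.842).

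Genes of terminal effector cells moved in both directions. Of 17 such genes, Id2 and Prr5l were higher and Cx3cr1 was lower, with a list median of 0.20. Id2, which supports effector differentiation and opposes the E proteins as ID3 does, was at 1537, 2133, 1892 and 1421 CPM under Tri and at 1415, 614, 880 and 792 CPM under Iso. The lowest Tri library lay just above the highest Iso library (log2 fold change 0.97 ± 0.25, edgeR adjusted p = 0.0211). Its call ended without Iso replicate 2, Iso replicate 3 or Tri replicate 2 (up to 0.0788), without Iso replicates 3 and 4 (0.106) and under RLE scaling (0.0613). Cx3cr1, the fractalkine receptor of circulating killer cells, was at 92.1, 28.1, 47.5 and 155 CPM under Tri and at 309, 192, 150 and 443 CPM under Iso. The highest Tri library reached the lowest Iso library and the others lay below (-1.81 ± 0.46, adjusted p = 0.0194), and the call ended without Tri replicate 2 or 3 (up to 0.0603). Prr5l, a component linked to the mTORC2 kinase, was at 0.224 to 11.3 CPM under Tri and without a count in the Iso libraries. This is at least 56.2-fold higher (edgeR adjusted p = 0.0473, up to 0.128 with a library left out, and held only without Iso replicate 3). S1pr5, an exit receptor of effector cells, was at 17.5 to 67.1 CPM under Tri and 105 to 247 CPM under Iso without overlap, but its adjusted p was 0.612. Zeb2 was at 14.7 to 45.5 and 37.1 to 130 CPM (-1.41 ± 0.59, adjusted p = 0.156), and Tbx21, which encodes T-bet, at 270 to 532 and 348 to 495 CPM (-0.07 ± 0.24, adjusted p = 0.953).

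Among 28 early response and AP-1 genes, Srf and Btg1 were higher and Junb was lower. Srf, the serum response factor, was at 47.1, 51.4, 71.2 and 57.0 CPM under Tri and absent from all 4 Iso libraries. The bound is at least 641-fold higher (edgeR adjusted p = 3.18e-07). In the KLRG1- gate Srf was at 41.7 ± 7.88 CPM under Tri and 56.0 ± 17.7 CPM under Iso, so only the Iso PD1-KLRG1+ libraries of these 4 groups lacked it. Junb, an AP-1 subunit, was at 388, 260, 471 and 439 CPM under Tri and at 536, 798, 1137 and 670 CPM under Iso. All Tri libraries lay below all Iso libraries (-0.91 ± 0.20, edgeR adjusted p = 0.00756), and after adjustment for genes detected the adjusted p was 0.21. Fos, another AP-1 subunit, was also lower in every Tri library, at 6.99 to 84.5 against 93.0 to 304 CPM, but did not pass (-2.53 ± 0.81, adjusted p = 0.0609). Btg1, an antiproliferative gene of resting lymphocytes, had a log2 fold change of 0.61 ± 0.16 with overlapping libraries (edgeR adjusted p = 0.0239), which ended without Iso replicate 1, Iso replicate 2 or Tri replicate 1 (up to 0.0866) and under RLE scaling (0.204).

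The largest increases were picked among called genes that averaged 50 CPM or more over all 27 libraries and whose groups did not overlap. They were in genes that the Iso PD1-KLRG1+ libraries nearly lacked. The 12 genes were Ctla4, Baz2a, Soat1, Skil, Ccl1, Herc2, Noc4l, Cep120, Fbxo9, Senp1, Rab11fip4 and Gpr174. The average includes other gates, and 4 of the 12 lay below 50 CPM in Tri PD1-KLRG1+ cells too. These were Ccl1 (mean 7.77 CPM), Soat1 (36.8), Noc4l (44.5) and Ctla4 (48.7). Group means over these 12 were 7.77 to 122 CPM in Tri and 0 to 4.22 CPM in Iso PD1-KLRG1+ cells, but 32.0 to 85.4 CPM in Tri and 20.4 to 79.5 CPM in Iso PD1-KLRG1- cells. Skil, which encodes SnoN, a repressor of SMAD signalling, was at 119, 61.5, 154 and 154 CPM under Tri and at 0.286, 3.35, 10.7 and 0.502 CPM under Iso. It was the 1 gene of the 12 with a count in every Iso library (log2 fold change 6.37 ± 0.65, edgeR adjusted p = 4.83e-07). Baz2a, a subunit of the complex that silences ribosomal RNA genes, was at 95.7, 114, 122 and 137 CPM under Tri and at 0.143, 0, 10.7 and 0 CPM under Iso (10.43 ± 1.05, adjusted p = 4.83e-07). The value of 10.7 CPM is 1 count of Iso replicate 3. Soat1, which esterifies cholesterol, was at 21.3 to 43.7 CPM under Tri and at 0.201 CPM or less under Iso (8.85 ± 0.86, adjusted p = 3.96e-07). Ccl1, a chemokine that binds CCR8, had 2.002 to 19.4 CPM under Tri and up to 0.279 CPM under Iso, and was the 1 gene of the 12 with a higher mean in Iso PD1-KLRG1- cells (64.0 ± 55.5 CPM) than under Tri in either gate. The others were the ubiquitin ligase gene Herc2, the ribosome assembly gene Noc4l, the centriole gene Cep120, the F-box gene Fbxo9, the SUMO protease gene Senp1, the RAB11 effector gene Rab11fip4 and Gpr174, a lysophosphatidylserine receptor, with log2 fold changes of 3.72 to 5.88. All 12 held their call without Iso replicates 3 and 4, and Gpr174 lost it without Tri replicate 1 or 2 (up to 0.0559). The Tri and Iso groups differed both in these genes and in the share of genes without a count. After adjustment for genes detected, 9 of the 12 held their call, and Senp1 (adjusted p = 0.127), Rab11fip4 (0.0536) and Gpr174 (0.104) did not. That adjustment cannot tell loss of genes from treatment, since Tri and Iso libraries do not overlap in genes detected.

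The 12 genes with the largest decreases were picked among genes whose groups did not overlap. Their separation, and a count in every Iso library, were therefore set by the rule. Lamp1 (chr8:13159161-13175338), a lysosomal membrane protein that reaches the surface when granules are released, was at 181, 144, 129 and 213 CPM under Tri and at 220, 389, 547 and 683 CPM under Iso. Tri replicate 4 and Iso replicate 1 nearly met (log2 fold change -1.39 ± 0.28, edgeR adjusted p = 0.00282). Without Iso replicates 3 and 4 it was -0.88 (adjusted p = 0.0472). Rps6ka4, the stress-activated histone kinase MSK2, was at 102, 68.9, 66.0 and 134 CPM under Tri and at 151, 294, 204 and 261 CPM under Iso. Its log2 fold change was -1.26 ± 0.31 (edgeR adjusted p = 0.0137, and 0.083 after adjustment for genes detected). Mt1, the metal-binding metallothionein, was at 14.5, 14.7, 21.2 and 8.04 CPM under Tri and at 32.9, 84.6, 118 and 53.5 CPM under Iso (-2.27 ± 0.51, edgeR adjusted p = 0.00715). Nrp1, the co-receptor neuropilin 1, was at 4.67 CPM in Tri replicate 1 and had no count in the other 3 Tri libraries, against 28.3, 33.5, 300 and 86.6 CPM under Iso (-6.23 ± 1.16, adjusted p = 0.00141; 0.139 after adjustment for genes detected). It was among the 5 genes that the weighted limma-voom fit called (0.0342). Spp1, osteopontin, had 0.667 CPM in Tri replicate 1 and none in the others, against 49.5, 29.6, 10.7 and 122 CPM under Iso (-7.83 ± 1.45, adjusted p = 0.00138), and is also abundant in tumour macrophages. Its 10.7 CPM in Iso replicate 3 is 1 count. Other decreases were those of the ER gene Creld2, described next, and of Usp21, Cd7, Srm, Sfxn3 and Tuba1c, with log2 fold changes of -1.91 to -1.24. Each of these last 5 lost its call without at least 1 library. They were Usp21 (without Iso replicate 3, Tri replicate 3 or Tri replicate 4, edgeR adjusted p up to 0.0616), Cd7 (Tri replicate 4, 0.0554), Srm (all but Iso replicates 1 and 3, up to 0.0857), Sfxn3 (all but Iso replicates 1 and 2, up to 0.105) and Tuba1c (Iso replicate 2, Tri replicate 2, 3 or 4, up to 0.25).

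The ER chaperone genes Hspa5 and Creld2 were both lower under Tri, and both hold an ER stress response element in front of their start. This element is bound by ATF6 with NF-Y when unfolded proteins build up in the ER. The motif searched was CCAAT, 9 bases of any kind and CCACG, on both strands, from 250 bases before to 50 bases after the start of each gene in the RefSeq table for GRCm38.p6, and it lies in 39 of 32851 windows (0.119%). The 2 promoters are shown because these were the 2 genes with the motif that fell, a choice made after their values were seen. The 250 bases before the start on the plus strand follow, Hspa5 at chr2:34771840-34772089 and Creld2 at chr15:88819396-88819645, with the match in capitals (Creld2 carries it on the minus strand).
Hspa5: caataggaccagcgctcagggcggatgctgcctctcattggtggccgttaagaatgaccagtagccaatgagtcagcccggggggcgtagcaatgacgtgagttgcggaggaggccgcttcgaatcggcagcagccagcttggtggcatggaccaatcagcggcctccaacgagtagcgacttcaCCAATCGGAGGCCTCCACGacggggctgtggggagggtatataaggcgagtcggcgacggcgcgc
Creld2: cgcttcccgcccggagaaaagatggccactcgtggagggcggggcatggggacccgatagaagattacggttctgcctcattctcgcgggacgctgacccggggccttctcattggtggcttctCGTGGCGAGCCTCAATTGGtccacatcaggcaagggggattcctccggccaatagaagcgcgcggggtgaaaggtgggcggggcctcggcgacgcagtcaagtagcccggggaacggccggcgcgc

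Hspa5, which encodes the chaperone BiP, was at 576, 501, 447 and 615 CPM under Tri and at 565, 929, 1255 and 1233 CPM under Iso. Iso replicate 1 lay among the Tri libraries and the other 3 above them (log2 fold change -0.79 ± 0.20, edgeR adjusted p = 0.0203). The call ended without Iso replicate 4, Tri replicate 3 or Tri replicate 4 (up to 0.0661) and without Iso replicates 3 and 4 (0.138). Creld2, an ER protein with disulfide isomerase activity, was at 58.0, 56.0, 30.9 and 42.7 CPM under Tri and at 147, 108, 236 and 132 CPM under Iso. No Tri library reached an Iso library, which the rule for the largest decreases required (log2 fold change -1.61 ± 0.37, edgeR adjusted p = 0.00905). The call held in each fit that left out 1 library and without Iso replicates 3 and 4 (0.0241), but not after adjustment for genes detected (0.267). Of the 18 tested genes with the motif, 2 were lower and 1, Xlr3b, was higher, where 0.619% and 5.46% of all genes were. The 2 are Hspa5 and Creld2, picked with their values seen, so these counts do not test the motif. Both lie at 50 CPM or more, as do 10 of the 18, and 1.16% of all genes at that level were lower. The other chaperone and folding genes among the 18 did not pass: Calr had a log2 fold change of -0.29 ± 0.22, Canx of -0.60 ± 0.28, Hsp90b1 of -0.10 ± 0.27, Pdia6 of -0.47 ± 0.42 and Dnajc3 of 0.35 ± 0.29 (edgeR adjusted p of 0.207 to 0.92). Hspa5 was also the 1 called member of 15 genes of heat shock and tissue dissociation, whose median was -0.27.

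No gene was called in 5 further lists, where 6.08% of all genes were called. They were 24 interferon-stimulated genes (median log2 fold change 0.04), 15 genes of MHC class I presentation (-0.08), 20 proliferation genes (-0.20), 22 nuclear genes of oxidative phosphorylation (0.36) and 81 cytosolic ribosomal protein genes (0.24). Within the interferon list Irgm1, a GTPase, came closest, at 360 ± 32.9 CPM under Tri and 155 ± 173 under Iso (edgeR adjusted p = 0.0518). Summed proliferation genes were at 2291 to 2960 CPM in the Tri libraries and at 3937, 5082, 987 and 3071 CPM in Iso replicates 1 to 4, so Iso replicate 3 lay below the Tri range and the other 3 above it. Among 20 genes of the T cell receptor complex and its proximal signalling, 1 was higher. This was Ptpn22, a phosphatase that restrains receptor signals (0.80 ± 0.20, adjusted p = 0.0145), which ended without Iso replicate 4 or Tri replicate 1 (up to 0.0898), without Iso replicates 3 and 4 (0.204) and under RLE scaling (0.0774). Among 16 glycolysis genes Aldoa, aldolase A, was higher (0.53 ± 0.14, adjusted p = 0.0227), which ended without Iso replicate 2 or Tri replicate 1 or 2 (up to 0.068) and under RLE scaling (0.18). Among 22 cytokine receptors Il1r2, the interleukin 1 decoy receptor, was lower (edgeR adjusted p = 0.0301), but its 306 counts all came from Iso replicate 1, at 43.8 CPM, and without that library the log2 fold change was 0.21.

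**Figure D4:**
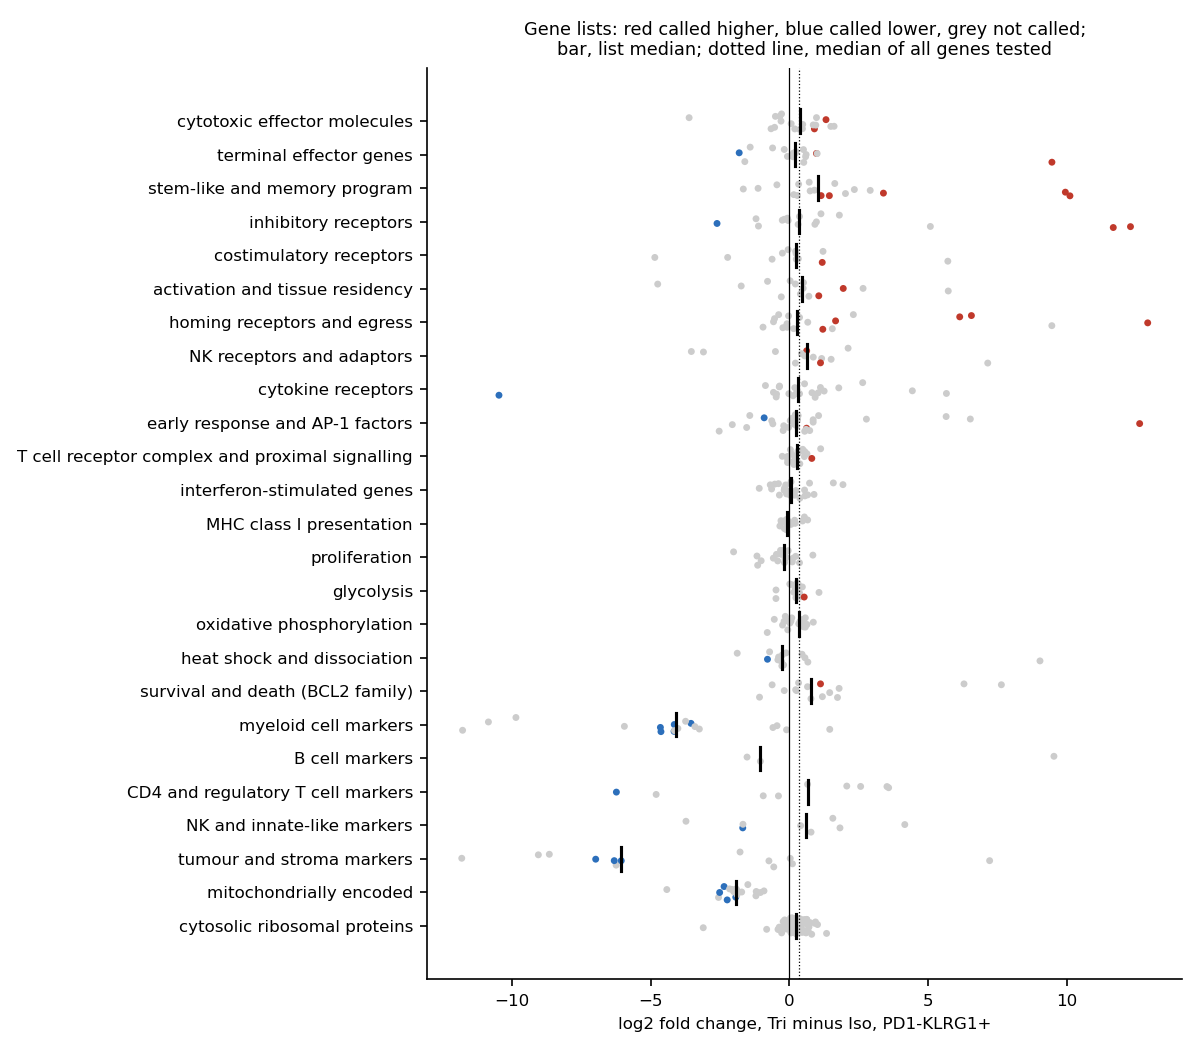
Log2 fold change of Tri over Iso PD1-KLRG1+ cells for each tested gene of 25 gene lists, with called genes marked and the list medians drawn. Most lists straddle 0, the stem-like and memory program has a median of 1.02, and the medians of the myeloid, stromal and mitochondrial lists lie well below 0.

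Markers of myeloid and stromal cells were among the genes lower under Tri. Of 18 myeloid markers, 5 were lower (0.619% of all genes were): Cd74, Lyz2, Fcer1g, Apoe and H2-Eb1, with a list median of -4.08. That median was -1.79 without Iso replicates 3 and 4, where 5 were again lower, and -1.72 without Iso replicate 4 alone. Lyz2, lysozyme, was at 16.3, 7.85, 32.7 and 13.98 CPM under Tri and at 191, 170, 10.7 and 1644 CPM under Iso. Iso replicate 4 was far above all others, and Iso replicate 3 lay within the Tri range (-4.16 ± 0.92, edgeR adjusted p = 0.00695). Of 13 tumour and stroma markers, Fn1, Col1a1 and Fbln2 were lower (list median -6.06). Fn1, fibronectin, was at 0.334 to 0.914 CPM under Tri and at 36.6, 49.9, 75.1 and 89.7 CPM under Iso, so all 4 Iso libraries held it (-6.98 ± 1.47, adjusted p = 0.00427). Summed over the lists, myeloid markers were at 564 to 662 CPM in the Tri libraries and at 1357, 1248, 440 and 12580 CPM in Iso replicates 1 to 4. Tumour and stroma markers were at 37.1 to 101 and 118 to 3982 CPM, and markers of NK and innate-like cells at 91.2 to 154 and 182 to 496 CPM (exact permutation p = 0.0286 for each of these last 2, adjusted 0.0714). B cell markers, none of them called, were at 111 to 159 and 129 to 451 CPM, and markers of CD4+ and regulatory T cells, of which Nrp1 was lower, at 40.7 to 102 and 67.5 to 311 CPM. The exact permutation p of the sums was 0.143 for myeloid, 0.114 for B cell and 0.229 for CD4+ and regulatory markers, and no sum passed after adjustment. By gene, the lists of CD4+ and regulatory and of NK and innate-like markers had positive median log2 fold changes of 0.65 and 0.59. S100a8, Epcam and Pdgfrb had no count in any of the 8 libraries, and Csf1r, a defining macrophage gene, had counts in Iso replicate 4 (244 CPM) and Tri replicate 4 (3.96 CPM) only. The part of these other cells in the changes of T cell genes was not tested. Without Iso replicates 3 and 4, 48 of the 61 named called genes held their call, with Cd69, Il7r, Ctla4, Serpinb9 and Junb among them, and 13 did not, with Id2, Icos, Klrk1, Klrc1 and Ptpn22 among them.

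Mitochondrially encoded transcripts were most abundant in the same library. Of 18 tested, mt-Cytb, mt-Nd1, mt-Atp8 and mt-Co1 were lower (list median -1.93). mt-Cytb, cytochrome b of complex III, was at 513 to 967 CPM under Tri and at 2633, 2367, 429 and 13080 CPM under Iso. Iso replicates 1, 2 and 4 lay above every Tri library and Iso replicate 3 below (-2.51 ± 0.58, edgeR adjusted p = 0.00908). Without Iso replicate 4 the call of each of the 4 genes ended (0.0672 for mt-Cytb, 0.243 for mt-Nd1, 0.409 for mt-Atp8 and 0.361 for mt-Co1), and the list median was -0.50. Without both Iso replicates 3 and 4, mt-Cytb (-1.65, edgeR adjusted p = 0.00024) and mt-Nd1 (-1.23, 0.0427) were called and the list median was -0.88. Among myeloid and stromal genes, leaving out Iso replicate 4 alone ended the calls of H2-Eb1 (edgeR adjusted p = 0.15) and Col1a1 (0.159). Without both Iso replicates 3 and 4 the values were 0.224 for H2-Eb1 and 0.142 for Col1a1.

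The difference between the treatment effects of the 2 KLRG1 gates was tested in the same fit, and 479 genes had a more positive effect in KLRG1+ cells and 26 a more negative one (3.41% and 0.185% of 14059; among the 4412 genes at 50 CPM or more 88 and 18, or 1.99% and 0.408%). Titles give the same replicate numbers in the 2 gates of a treatment, and whether such libraries came from 1 mouse is not stated. With treatment and number together as a random block in limma-voom, 229 genes had a more positive and 14 a more negative effect, and 139 of the 505 calls were shared. In the KLRG1- gate itself 37 genes were higher and 76 lower under Tri (0.263% and 0.541%; 0.793% and 1.52% of the 4412). Cd69 was at 205 to 432 CPM in the 5 Tri and at 198 to 314 CPM in the 4 Iso PD1-KLRG1- libraries, where it did not pass (log2 fold change 0.34 ± 0.26), and its effect was larger by 1.6 ± 0.38 in KLRG1+ cells (edgeR adjusted p = 0.0194). Il7r was at 130 to 214 CPM under Tri and at 230 to 281 CPM under Iso in the KLRG1- gate, with every Tri library below every Iso library but no call (-0.58 ± 0.58). Its difference between gates was 3.97 ± 0.89 (adjusted p = 0.0118). Ctla4 differed by 10.99 ± 1.16, a value that depends on the prior count since 1 group had none (adjusted p = 8.98e-06). For these 3 genes the difference was called in all 17 leave-one-out fits and without Iso PD1-KLRG1+ replicates 3 and 4. After adjustment for genes detected the difference passed for Ctla4 (0.00241) and not for Cd69 (0.734) or Il7r (0.281).

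Gzmb and other killing genes differed in the opposite direction. Gzmb was at 1615 to 2280 CPM in the 5 Tri and at 481 to 567 CPM in the 4 Iso PD1-KLRG1- libraries, a log2 fold change of 1.84 ± 0.20, against 0.06 ± 0.20 in KLRG1+ cells. The difference of -1.78 ± 0.27 (edgeR adjusted p = 0.000326) held in all 17 leave-one-out fits (up to 0.00173), under RLE scaling and after adjustment for genes detected (0.0037). Klrk1 was higher under Tri in both gates, and by less in KLRG1+ cells (difference -1.05 ± 0.25, adjusted p = 0.0161; 0.207 after adjustment for genes detected). Prf1, Gzmk and Fasl, the Fas ligand gene, gave differences of -1.59 ± 0.40, -1.78 ± 0.44 and -1.32 ± 0.35 (edgeR adjusted p = 0.0235, 0.0222 and 0.031), so that 4 of 19 cytotoxic genes had a more negative effect in KLRG1+ cells, where 0.185% of all genes did. After adjustment for genes detected Prf1 passed (0.00945), and Gzmk (0.0762) and Fasl (0.0754) did not. That of Prf1 ended without Iso PD1-KLRG1- replicate 2 or 3 or Tri PD1-KLRG1+ replicate 2 (up to 0.0562) and that of Gzmk without Iso PD1-KLRG1+ replicate 1 (0.051). That of Fasl ended without Tri PD1-KLRG1+ replicate 2 or Tri PD1-KLRG1- replicate 1, 2 or 3 (up to 0.0648). Without Iso PD1-KLRG1+ replicates 3 and 4 the 3 were at -2.07, -2.18 and -1.33 (adjusted p = 0.00117, 0.00285 and 0.0301). Plk3, a stress kinase gene, Rps6ka4 and Atp6v0a2, a subunit of the vacuolar proton pump, were lower under Tri in KLRG1+ cells, at -1.65 ± 0.48, -1.26 ± 0.31 and -0.99 ± 0.28 on the log2 scale, and had positive values that did not pass in KLRG1- cells (1.44 ± 0.45, 0.60 ± 0.29 and 0.88 ± 0.27). Their differences were -3.09 ± 0.66, -1.86 ± 0.42 and -1.88 ± 0.39 (edgeR adjusted p = 0.00852, 0.0127 and 0.0062), called in all 17 leave-one-out fits but not after that adjustment (0.662, 0.131 and 0.213). Within KLRG1+ cells the calls of Plk3 and Atp6v0a2 ended without Iso replicates 3 and 4 (0.268 and 0.0649).

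Cxcr6 and Serpinb9 were higher under Tri in both gates. Cxcr6 had log2 fold changes of 1.06 ± 0.20 and 1.46 ± 0.20 and Serpinb9 of 1.32 ± 0.24 and 2.25 ± 0.23 in KLRG1+ and KLRG1- cells. Their differences of -0.41 ± 0.28 and -0.93 ± 0.32 did not pass (edgeR adjusted p = 0.518 and 0.101). Junb was lower in both gates (-0.91 ± 0.20 and -1.16 ± 0.19, difference 0.25 ± 0.28, adjusted p = 0.8). Calls of ribosomal protein genes differed between the gates in the 27-library fit: 0 of 81 were called in KLRG1+ cells and 43 were lower under Tri in KLRG1- cells, with medians of 0.24 and -1.33. The difference was called in 41 of the 81, all more positive in KLRG1+ cells, where 3.41% of all genes were. That count fell to 4 without Iso PD1-KLRG1- replicate 2, to 5 without Tri PD1-KLRG1+ replicate 2, to 5 of 74 when only genes at 50 CPM or more were tested, and to 0 in a fit of the 17 PD1- libraries alone, after adjustment for genes detected, with sample weights or with the random block.

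**Figure D5:**
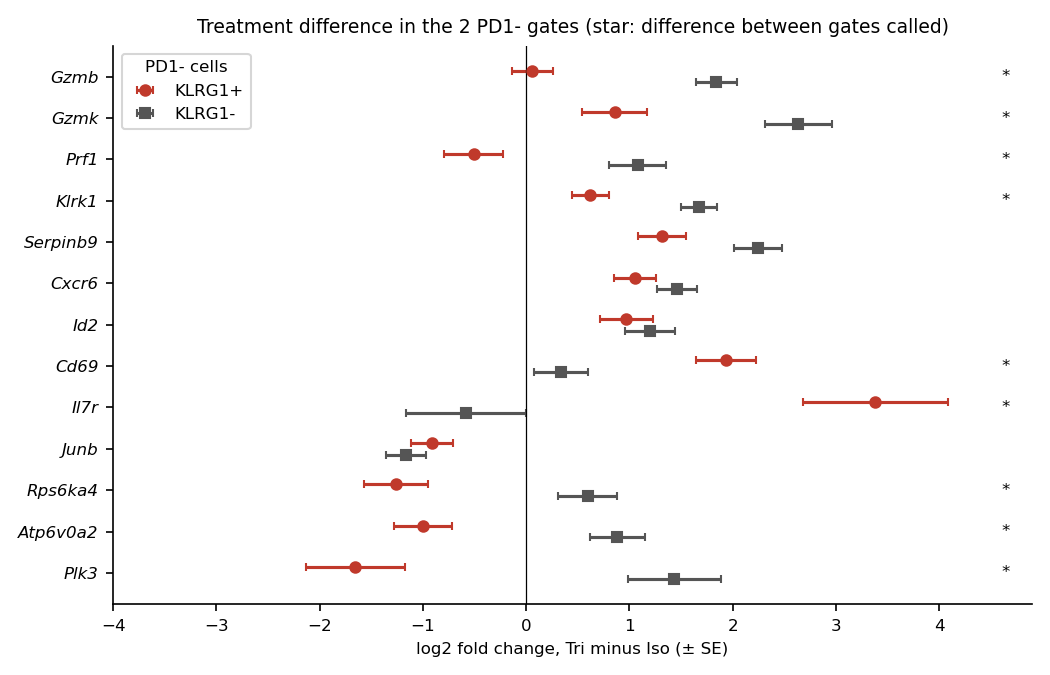
Log2 fold change of Tri over Iso (± SE) in PD1-KLRG1+ and PD1-KLRG1- cells for 13 genes, with a star where the difference between gates passed. Cd69 and Il7r rise in the KLRG1+ gate and not in the KLRG1- gate, Gzmb lies at 0.06 in the KLRG1+ and 1.84 in the KLRG1- gate, and Cxcr6 and Junb have like values in both.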

How the data were processed

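RNA of sorted CD8+ T cells was sequenced, and the authors deposited raw read counts per gene; DESeq2 1.26.0 is named in the submitters' processing notes, and no source used here gives the aligner, the counter or the genome build. Gene symbols and coordinates come from GENCODE M21. Counts were tested with edgeR 4.0.16 (R 4.3.3), as a quasi-likelihood fit of all 27 libraries with 6 groups and a term for whether the description carries an RNA number. The fit used a minimum count of 10, TMM scaling and Benjamini-Hochberg adjustment over 14059 genes. SEs were derived from the F statistics. CPM were computed here from library totals, which ran from 93198 to 19929546 counts in the PD1-KLRG1+ libraries, where 1 count is worth 0.0502 to 10.7 CPM. Bounds against groups without counts used 3 counts over the group. The steps were tested on simulated data in which all libraries shared 1 expression profile apart from the effects put in. Loss of whole genes from the Iso libraries and RNA of other cells were not simulated.

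Genes named are the sort genes, Cd69, Cxcr6, Il7r, Ctla4, up to 3 called members per list and up to 4 gate differences per direction. Also named are the 12 largest changes per direction. These were called, averaged 50 CPM or more over all 27 libraries and had groups without overlap. Other list members and genes with the promoter motif were named after their values were seen. The comparison, the lists (25, with 377 of 401 hand-listed members tested) and the tests were chosen with earlier results of these data known. DESeq2 1.42.0, limma 3.58.1, other scalings, filters and sets of libraries served as alternatives. A few genes that these rules name are not reported here.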

Additional observations from a re-analysis of the deposited data

Results flagged for a closer look

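Among 154 sets of 4 values looked at, 23 had a highest or lowest library far from the other 3. Chance marks about 1 in 20 groups of normally distributed values. Sets with counts in 1 library only are always marked, so the 23 cannot be set against that rate. Such sets were Soat1, Noc4l, Senp1 and Il1r2 in Iso and Spp1, Nrp1 and Fbln2 in Tri. Iso replicate 4 stood high in Cd74 (3227 CPM), Lyz2 (1644), Col1a1 (1077), mt-Nd1 (8761), mt-Atp8 (858), summed myeloid markers (12580) and summed tumour and stroma markers (3982). Iso replicate 3 stood high in Btg1 (901 CPM), Gpr183 (204), Baz2a (10.7) and Itga6 (10.7), the last 2 from 1 count each. Iso replicate 1 stood high in Il1r2 (43.8 CPM), Gpr174 (16.7), Senp1 (11.2) and Noc4l (2.86), and Iso replicate 2 in Tuba1c (783), Fbxo9 (4.46) and Herc2 (3.77). Soat1 was at 0.201 CPM in Iso replicate 4 and had no count in the other 3 Iso libraries. In the Tri group, replicate 1 stood high in Nrp1 (4.67 CPM) and Spp1 (0.667), and replicate 4 stood high in Fbln2 (6.29) and low in Aldoa (1296).

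Of the 67 genes named by rule, 23 had treatment effects that differed between the KLRG1+ and KLRG1- gates in the edgeR test of that difference. The log2 effect was more positive in KLRG1+ cells for Cd69 (1.6), Il7r (3.97), Ctla4 (10.99), Baz2a (10.21), Soat1 (8.25), Skil (6.33), Ccl1 (6.87), Herc2 (5.69), Noc4l (5.72), Cep120 (5.60), Fbxo9 (5.56), Id3 (11.70), Btla (12.17), Itgb3 (11.67), Itga6 (6.70) and Srf (13.07). It was more negative for Nrp1 (-5.91), Rps6ka4 (-1.86), Klrk1 (-1.05), Il1r2 (-14.13), Gzmb (-1.78), Atp6v0a2 (-1.88) and Plk3 (-3.09). Values above 8 belong to genes that had no count, or almost none, in the Iso PD1-KLRG1+ libraries and depend on the prior count. That of Il1r2 rests on Iso replicate 1.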

How the results depend on the processing

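Genes called between Tri and Iso PD1-KLRG1+ cells numbered 855. They numbered 151 with only genes of at least 50 CPM tested, 447 with genes detected as a covariate, 472 without libraries that carry an RNA number, 1945 with DESeq2, 5 with weighted limma-voom and 0 with the 8 libraries alone. Chosen after seeing the data, the 17 PD1- libraries alone gave 511 and 6 libraries without Iso replicates 3 and 4 gave 0 (1519 unadjusted). Leaving out 1 library gave 586 to 1328, the highest without Iso replicate 2. Among genes at 50 CPM or more 214 were called, and the same settings called 62 (covariate), 441 (DESeq2, 191 of them among the 214), 1 (weighted), 0 (8 alone, 218 unadjusted), 76 (17 libraries), 0 (6 libraries), 403 without Iso replicates 3 and 4 and 123 with DESeq2 on the 8. Leaving out 1 library gave 128 to 396: above 1.5 times without Iso replicate 1 (396), 2 (348) or 4 (328), and below without Tri replicate 1 (138), 2 (135), 3 (128) or 4 (128). For the 505 gate differences the counts were 50 (genes of at least 50 CPM), 119 (covariate), 237 (17 libraries), 297 (no RNA number), 978 (without Iso replicates 3 and 4), 1264 (DESeq2), 0 (weighted, 1243 unadjusted), 243 (animal as a random block in limma-voom) and 296 to 907 with 1 library left out. The lowest was without Iso PD1-KLRG1- replicate 2 and the highest without Iso PD1-KLRG1+ replicate 2; replicate 1 of the latter group gave 813 and replicate 3 of the former 331.

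RLE scaling gave 607 higher and 136 lower genes, against 768 and 87. A replicate block called 630 genes between treatments and 335 between gates. Same-numbered Tri and Iso libraries did not deviate together (correlations of -0.0594, -0.0587, 0.0073 and 0.0119 over 4416 genes), so the numbers were not taken as pairs across treatments. Between the gates of 1 treatment the same-numbered correlations ran from -0.223 to 0.462, with 2 of 8 above 0.1 and 3 of 8 libraries closest to their own number, so neither were these taken as pairs.

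Differences of library measures (Tri minus Iso) with 1 library left out ran from -1528000 to 5084000 total counts, 1847 to 2238 genes detected, -18.2 to -11.7 percentage points of well-expressed genes without a count, -0.242 to 0.618 of ribosomal and -3.14 to -0.422 of mitochondrial counts. Marker sums ran from -4445 to -398 CPM (myeloid), -1538 to -250.4 (tumour and stroma), -194 to -86.5 (B cell), -120 to -38.4 (CD4+ and regulatory) and -234 to -129 (NK and innate-like). Il1r2 reversed without Iso replicate 1, with log2 fold changes of -11.06 to 0.21 over the leave-one-out fits. Of the named genes' alternatives, 1126 kept their call or their lack of one, 463 lost the call, 4 gained it and 1 called effect reversed. Where neither fit called the gene, a change of sign was counted among the 1126. Pdcd1, for example, had log2 fold changes of -0.07 in the main fit and 0.66 in the 8 libraries alone. Depth limits Iso replicate 3 most.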
